A study of Drosophila melanogaster and Drosophila simulans and Drosophila yakuba with 27 samples.

Results

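The genes described here are 48 protein-coding genes of Drosophila that carry only a CG number in the deposited table of normalised expression and have values only in lines of Sophophora. They were chosen by 4 conditions: an identifier of the letters CG followed by digits, a value in all 21 columns of the 7 Sophophora lines, no value in the 6 columns of D. mojavensis and D. virilis, and a signal of at least 10 in 1 or more of the 21 columns. They are 48 of 15439 genes in the table and of the 7764 with a CG number. Of the 160 CG-numbered genes that met the first 3 conditions, 112 stayed under a signal of 10 in every library. The level that admitted a gene is a selection and not a finding. The 2 genes just inside the minimum were CG7290, whose highest signal was 12.0, and CG14237, at 13.0, and the 2 just outside were CG32573, at 9.89, and CG11671, at 9.45.

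RNA was sequenced from eye-antennal discs, wing discs and brains of wandering third-instar larvae raised at 25 °C, with 1 library for each line and tissue. The 7 lines used are D. melanogaster RAL-208, an inbred line with the genotype label DGRP-208, and Canton S, a wild-type strain; D. simulans, which carries the w[501] allele of white; D. yakuba, labelled wild-type; D. ananassae, labelled In(3R)A; and D. pseudoobscura and D. willistoni, both labelled wild-type. The comparisons address how expression differed between the 3 larval tissues across these lines, which stand in for replicates of a tissue. Each line is 1 stock without a repeat library, and the lines share ancestry, so the p-values measure how steady a tissue difference was over 7 related lines and not the spread between repeat dissections.

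A CG number is the identifier a predicted gene receives in the D. melanogaster annotation, and a gene keeps it as its symbol until a name is given. The species compared here with values belong to the subgenus Sophophora, while D. mojavensis and D. virilis belong to the subgenus Drosophila. A missing value in the table says only that no value was listed for that species, not that its genome lacks the gene. Imaginal discs are epithelial sacs that form adult body parts during metamorphosis: the eye-antennal disc forms the eye, antenna and head capsule, and the wing disc forms the wing and much of the thorax. The larval brain holds neurons, glia and dividing neuroblasts.

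The word uncharacterised did not hold for all 48. In the Ensembl annotation of D. melanogaster, release 115 on assembly BDGP6.54, all 48 have an entry as protein-coding genes, 41 still have a CG symbol and 7 have a name. CG9740 and CG8436 are Ibf2 and Ibf1, insulator-binding factors that act with the insulator protein CP190. CG9996 is shams, a xylosyltransferase that modifies the Notch receptor. CG6662 is GstO1, a glutathione S-transferase of the omega class, CG6300 is Acsx1L, of the acyl-CoA synthetases, CG31202 is alpha-Man-Ic, a class I alpha-mannosidase, and CG16885 is Vajk2. The remaining 41 are given without a role.

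Between 4085962 and 20473119 reads per library were counted in genes. The eye and neuron markers followed the labels. The summed signal of 11 eye markers was 594 to 873 in eye-antennal discs, 48.9 to 115 in wing discs and 160 to 283 in brains, and that of 8 neuron markers was 47.6 to 196, 15.3 to 56.8 and 440 to 849 in the same tissues. Not every list separated the tissues: 4 markers of adult muscle precursors, cells of the wing disc, had a median sum of 49.9 in wing discs and 51.3 in brains, and 6 antennal markers overlapped between eye-antennal discs and brains. The sum of 4 ring gland markers was 96.3 to 574 with a median of 262 in eye-antennal discs, 5.23 to 167 with a median of 8.39 in wing discs and 112 to 490 with a median of 349 in brains. The neuron markers stood at a median of 14.4% to 22.1% of their brain level in the eye-antennal libraries of RAL-208, Canton S and D. simulans, against 3.24% to 7.44% in those of the other 4 lines, and 3 fat body markers summed to between 43.6 and 9026 over the 21 libraries. In these bulk samples, fewer cells of a type and less RNA per cell cannot be told apart.

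The 48 genes ranged from steady expression in every library to signal in a single one. The values are a deposited signal that, in D. melanogaster, follows reads per exonic length, so levels of different genes can be set side by side there. Among the 48, 9 reached a signal of 10 in all 7 lines and 7 were at 10 or more in all 21 libraries: CG9740 (Ibf2), CG8436 (Ibf1), CG10286, CG12171, CG11839, CG34242 and CG5535. At the other end, 12 reached 10 in only 1 line, 8 in only 1 tissue and 6 in a single library. A signal of 0 was listed in at least 1 library for 29 of the 48. The wing disc of RAL-208, with 4114414 reads against a wing disc median of 12160079, had 16 of the 48 at 0. The eye-antennal disc of D. simulans, with 4085962 reads, had 5. The part of depth in the zeros was not tested. For the counts of 8, 6 and 29, no share over other genes was taken. For comparison, 25.0% of the 48 and 6.15% of the 7426 genes with the same minimum and values in the 21 columns reached 10 in only 1 line, and 14.6% against 53.9% were at 10 or more in all 21 libraries. The 28 named genes with the same minimum and values in the same 7 lines only were near the 48, at 25.0% and 17.9%. The mean signal over 21 libraries was highest for CG9740, at 77.2, followed by CG8436 (Ibf1) at 69.2, CG9996 (shams) at 55.9, CG10286 at 51.6, CG12171 at 51.4, CG12310 at 50.7, CG5866 at 45.0, CG11839 at 41.9, CG31698 at 39.4 and CG6662 (GstO1) at 38.7. This order mixes species and rests on single lines: CG9740 averaged 185 over the 3 libraries of D. pseudoobscura, while in RAL-208 it averaged 62.5, below CG8436 at 72.4 and CG9996 at 67.1. The means also have unlike makeups: CG10286 lay between 29.3 and 75.3 in every library, while CG12310, CG5866 and CG31698 owed theirs to a few libraries each.

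**Figure D1:**
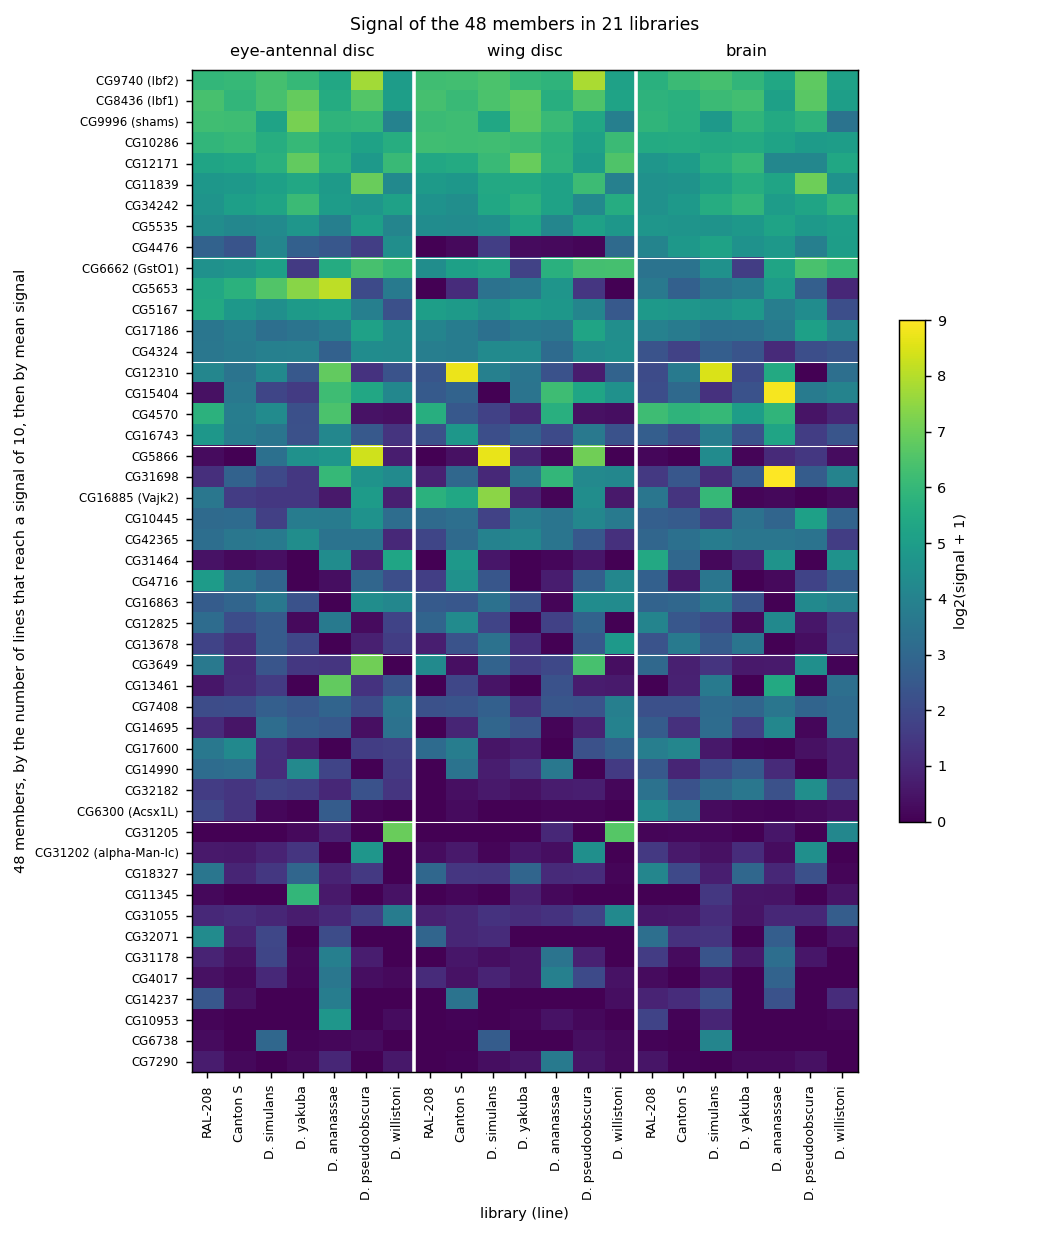
Heat map of the 48 genes (rows) in 21 libraries (columns, grouped by tissue with eye-antennal disc, wing disc and brain from left to right), coloured by log2(signal + 1), with rows ordered by the number of lines that reach a signal of 10 and then by mean signal. The 9 genes at the top reach 10 in all 7 lines, while the 12 at the bottom reach it in 1 line.

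Levels varied more between lines than between tissues. The SD of log2(signal + 1) between the 7 lines of a tissue, averaged over the 3 tissues, had a median of 1.21 over the 48 genes, and the SD between the 3 tissues of a line, averaged over the 7 lines, a median of 0.47. The same medians were 0.46 and 0.28 over all 7426 genes, 0.51 and 0.27 over the 3326 CG-numbered genes with values in all 9 lines, and 0.88 and 0.58 over the 28 named genes with values in the same 7 lines only. The mean signal of the 48 had a median of 9.48, against 29.7 over the 7426 genes, so their level was lower as well. D. ananassae held the largest number at 10 or more, 32 of 48, or 66.7%, and the other 6 lines held 23 to 26. Over the 7426 genes D. ananassae also held the largest share at 10 or more, 88.7%, against 84.8% to 87.0% in the other 6 lines. D. ananassae and D. pseudoobscura each had the highest line mean for 11 of the 48, or 22.9%, against 14.8% and 17.8% of the 7426 genes. A level difference between lines also holds any difference in ortholog assignment, gene model length and normalisation between species, whose part in it was not tested.

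Tissue differences were tested with limma on log2(signal + 1) with line as a block, for the 39 of the 48 that reached a signal of 1 in at least 7 libraries, with p-values adjusted over all 7864 genes fitted. The 9 that were not fitted are low in most libraries, so the counts below cover 39 genes and not all 48. In the eye-antennal disc against the wing disc, 4 of the 39 passed an adjusted p of 0.05, 3 higher and 1 lower, where 22.7% of all genes fitted passed, 16.5% higher and 6.26% lower. In the eye-antennal disc against the brain, 11 passed, 8 higher and 3 lower, against a background of 49.5%, with 24.3% higher and 25.3% lower. In the wing disc against the brain, 13 passed, 9 higher and 4 lower, against 59.5%, with 27.6% higher and 32.0% lower. With library medians set equal, the same comparison gave 12 higher and 3 lower, against 34.2% higher and 27.1% lower of all genes fitted. These shares, 10.3%, 28.2% and 33.3%, are below the background in each comparison, while the median SE of the 39 was 0.26, against 0.10 over the 7278 genes of the same minimum that were fitted. The median absolute log2 difference of the 39 was larger than theirs with the pseudocount of 1: 0.20 against 0.15 between the discs, 0.36 against 0.28 between eye-antennal disc and brain, and 0.42 against 0.37 between wing disc and brain. With a pseudocount of 5 the order turned in the comparisons with the brain, to 0.20 against 0.23 over all genes fitted for the eye-antennal disc and 0.24 against 0.30 for the wing disc. In all, 14 genes passed in at least 1 comparison and 25 in none. The 3 comparisons share libraries, so their counts are not independent of each other.

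**Figure D2:**
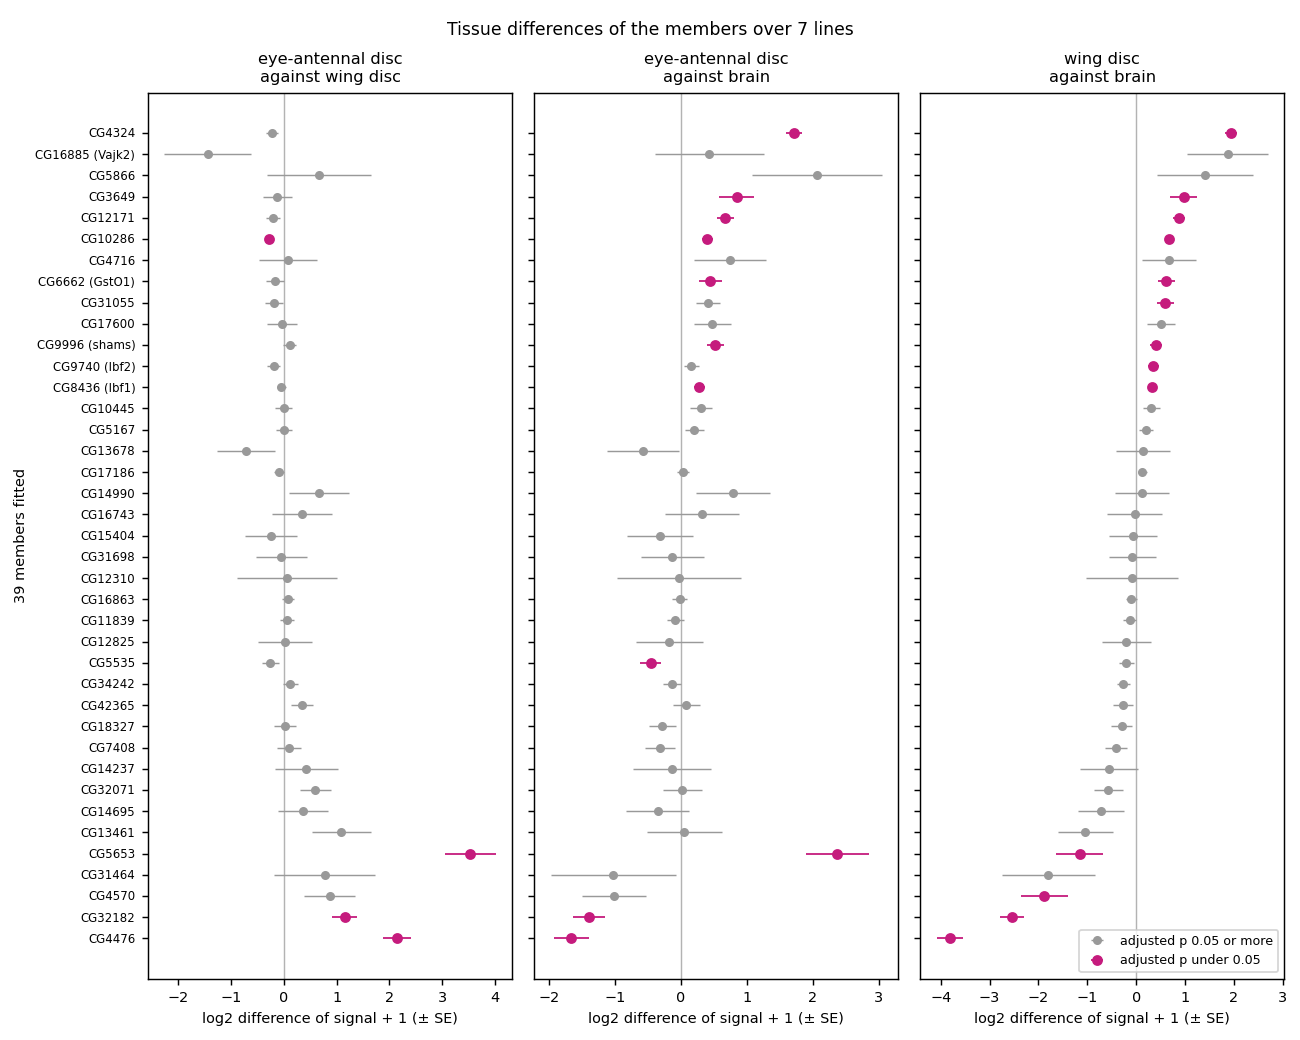
Log2 difference of signal + 1 with its SE for the 39 genes fitted, in eye-antennal disc against wing disc, eye-antennal disc against brain and wing disc against brain from left to right, with rows ordered by the last comparison. Points to the right of 0 are higher in the tissue named first, and the coloured points, 4, 11 and 13 in the panels, have an adjusted p under 0.05.

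CG4476 and CG32182 were highest in the brain, intermediate in the eye-antennal disc and lowest in the wing disc. CG4476 had a signal of 2.22 to 20.9 with a median of 5.75 in eye-antennal discs, 0 to 7.54 with a median of 0.18 in wing discs, and 13.8 to 35.4 with a median of 27 in brains. The wing discs of D. simulans, at 2.19, and D. willistoni, at 7.54, stood above the other 5, which lay at 0.21 or less, and no wing disc overlapped a brain. Its 7 wing libraries held 0 to 157 reads of the gene, and the library with no read, RAL-208, could have held a signal of up to 0.47 by a floor of 3 reads. The log2 difference was 2.15 (SE 0.26, adjusted p = 1.92e-05) in eye-antennal against wing disc, -1.67 (SE 0.26, adjusted p = 6.67e-05) in eye-antennal disc against brain and -3.82 (SE 0.26, adjusted p = 4.33e-09) in wing disc against brain, each with 1 sign in 7 of 7 lines. A fold on this scale understates the change where the signal is near 0. Without RAL-208, Canton S and D. simulans, the lines with the higher median share of neuron markers in eye-antennal libraries, the 3 differences were 1.91, -1.74 and -3.65. The summed neuron markers, as a share of the brain sum of the line, kept that split, at 20.3% to 31.2% against 10.8% to 17.0%. The sums themselves, not set against the brain, did not: the eye-antennal disc of D. willistoni, at 144, stood above that of Canton S, at 134. The ring gland markers also ran high in eye-antennal discs and brains and low in wing discs, and the wing disc of D. willistoni, where the gene stood highest among wing discs, had their highest wing disc sum, 167. Among eye-antennal discs the gene was highest in D. willistoni too, at 20.9, but their sum there, 177, was below the median of 262. Their highest eye-antennal sum, 574, was that of D. simulans, with the gene at 16.4. The part of neuron or ring gland material in the differences of CG4476 was not tested.

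CG32182 had a signal of 1.02 to 3.84 with a median of 2.02 in eye-antennal discs, 0 to 0.67 with a median of 0.33 in wing discs, and 2.59 to 20.6 with a median of 7.69 in brains. The eye-antennal and wing discs did not overlap, while the highest eye-antennal disc, D. pseudoobscura, overlapped the lowest brains. In the wing disc these values rest on 12 reads at most per library. The log2 differences were 1.15 (SE 0.24, adjusted p = 0.00278) between the discs, -1.40 (SE 0.24, adjusted p = 0.000172) between eye-antennal disc and brain and -2.55 (SE 0.24, adjusted p = 1.89e-07) between wing disc and brain, with 1 sign in all 7 lines. The first was no longer past the threshold without RAL-208, Canton S and D. simulans (log2 difference 1.07, adjusted p = 0.121, where the alternatives ranged from 0.000354 to 0.168). It was also lost with a pseudocount of 5 and in edgeR and DESeq2 on the read counts of D. melanogaster. Those count tests also lost the difference between eye-antennal disc and brain, where adjusted p over the alternatives ranged from 0.000163 to 0.186. The neuron and ring gland markers were lowest in the wing disc here too, and their part was not tested. In the D. melanogaster annotation the gene lies inside the spans of Adgf-A and Adgf-A2 with no exon in common.

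CG5653 was the gene with the largest difference between the discs. Its signal was 3.09 to 275 with a median of 52.8 in eye-antennal discs, 0 to 24.8 with a median of 1.68 in wing discs, and 0.99 to 30.0 with a median of 10.4 in brains. D. ananassae was highest in all 3 tissues, D. pseudoobscura was lowest in eye-antennal discs, and the ranges of the 3 tissues overlapped. The signal was higher in the eye-antennal than in the wing disc in 7 of 7 lines, with a log2 difference of 3.53 (SE 0.48, adjusted p = 5.16e-05), and higher than in the brain in 6 of 7 lines, with 2.37 (SE 0.48, adjusted p = 0.000627). The exception was D. pseudoobscura, at 3.09 in the eye-antennal disc and 5.53 in the brain. The 6 muscle markers summed to 106 to 1032 in eye-antennal discs, 18.5 to 303 in wing discs and 20.0 to 852 in brains. They were highest in the eye-antennal disc of D. ananassae, with the gene at 275. Their highest brain sum was that of D. simulans, with the gene at 10.4. The ring gland markers were also higher in eye-antennal than in wing discs, and the part of muscle, fat body or ring gland in this gene's signal was not tested. The difference between wing disc and brain, -1.16 (SE 0.48, adjusted p = 0.0482), was close to the threshold and was lost without RAL-208 (-0.74, adjusted p = 0.186), Canton S (-1.08, adjusted p = 0.105), D. ananassae (-1.31, adjusted p = 0.055) or D. willistoni (-1.19, adjusted p = 0.0831), where all alternatives ranged from 6.67e-05 to 0.393. It was lost under 12 of 19 alternatives. These also held a pseudocount of 5, no filter on low values, library medians set equal, no intensity trend and no replicate block. The rest were edgeR on the read counts of 21 libraries and leaving out RAL-208, Canton S and D. simulans, or D. simulans, D. yakuba and D. ananassae. The difference from the brain in the eye-antennal disc was lost without D. simulans, D. yakuba and D. ananassae (1.70, adjusted p = 0.0992, in a range of 1.89e-05 to 0.0992) and with no replicate block.

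CG4570 was lower in the wing disc than in the brain in 7 of 7 lines. It had a signal of 0.26 to 50.3 with a median of 2.31 in wing discs and 0.41 to 73.1 with a median of 57.1 in brains, and of 0.30 to 85.7 with a median of 13.0 in eye-antennal discs. RAL-208 and D. ananassae were highest in the wing disc, at 48.6 and 50.3, while D. pseudoobscura and D. willistoni stayed under 1 in all 3 tissues. The log2 difference was -1.89 (SE 0.48, adjusted p = 0.00314). The call was lost without RAL-208, Canton S and D. simulans (-1.23, adjusted p = 0.119) and without D. simulans, D. yakuba and D. ananassae (-1.17, adjusted p = 0.0624), in a range of 0.00174 to 0.28. It was also lost with no replicate block and in edgeR on the read counts of D. melanogaster.

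**Figure D3:**
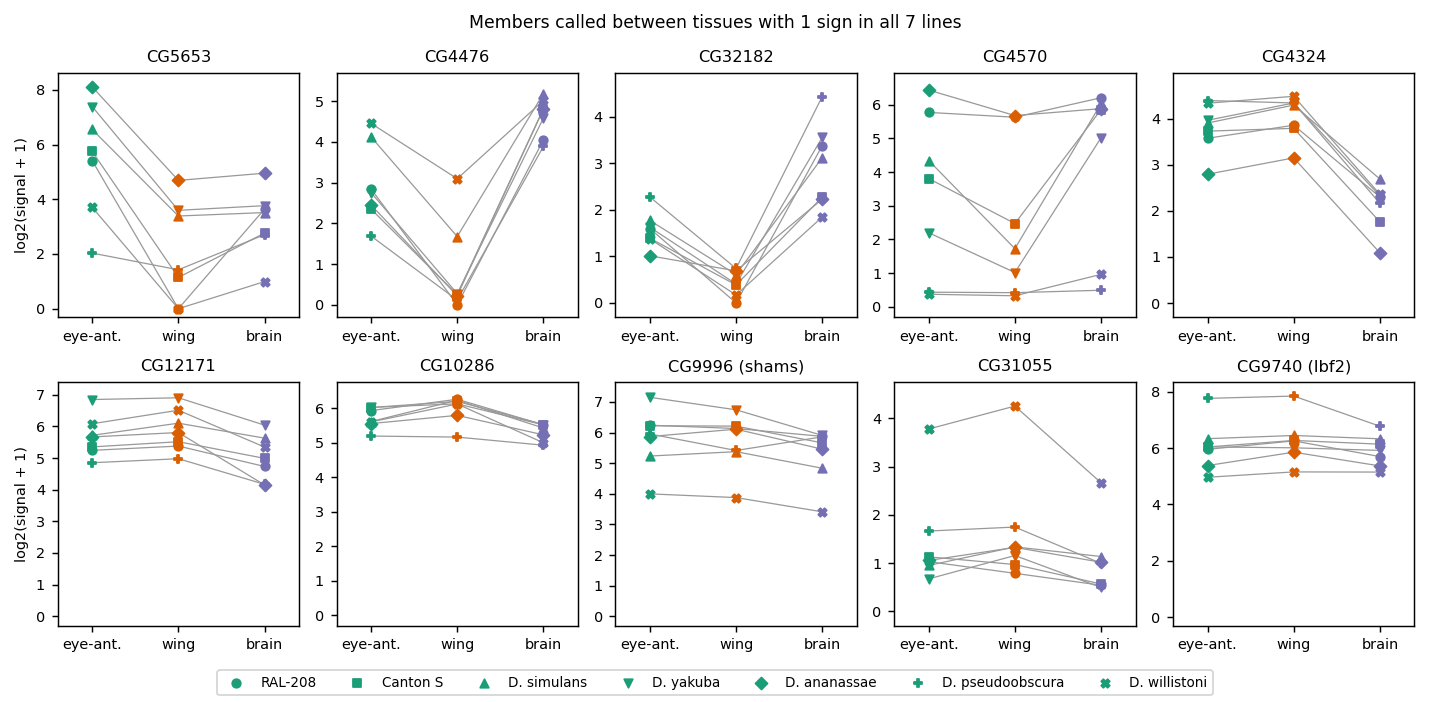
Log2(signal + 1) in eye-antennal disc, wing disc and brain (left to right) for the 10 genes that were called in at least 1 comparison with 1 sign in all 7 lines, with 1 marker shape per line and a grey line joining the 3 tissues of a line. CG4476 and CG32182 dip in the wing disc in every line, CG5653 is above its wing disc level in every eye-antennal disc, and CG4324 drops in every brain.

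A larger group was higher in both discs than in the brain: 7 genes passed in that direction in both comparisons. CG4324 led them. It had a signal of 5.94 to 20.0 with a median of 14 in eye-antennal discs, 7.88 to 21.4 with a median of 18.6 in wing discs, and 1.13 to 5.45 with a median of 3.93 in brains, so that no disc overlapped a brain. The log2 difference from the brain was 1.72 (SE 0.12, adjusted p = 1.65e-08) in the eye-antennal disc and 1.94 (SE 0.12, adjusted p = 1.08e-09) in the wing disc, in 7 of 7 lines each.

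CG12171 and CG10286 were expressed in every library and had smaller differences from the brain. CG12171 had a median of 49.9 in eye-antennal discs, 55.0 in wing discs and 30.8 in brains, and was highest in D. yakuba, at 115, 119 and 64.9. It was above the brain by 0.67 (SE 0.13, adjusted p = 0.00036) in the eye-antennal disc and 0.88 (SE 0.13, adjusted p = 1.92e-05) in the wing disc on the log2 scale, in 7 of 7 lines, while the tissues overlapped between lines. The eye-antennal call was lost with no replicate block and in edgeR and DESeq2 on the read counts of D. melanogaster, in a range of 0.000212 to 0.244. The wing disc call was lost with no replicate block (adjusted p = 0.056). CG10286 had 35.5 to 63.8 in eye-antennal discs, 34.7 to 75.3 in wing discs and 29.3 to 45.0 in brains, with the smallest SD between lines within a tissue of the 48, 0.32 on the log2 scale as the mean over tissues. Its log2 difference from the brain was 0.40 (SE 0.08, adjusted p = 0.000734) and 0.68 (SE 0.08, adjusted p = 2.7e-06), in 7 of 7 lines. With no replicate block the first of these was lost (adjusted p = 0.108). CG10286 was also the 1 gene called lower in the eye-antennal than in the wing disc, by -0.28 (SE 0.08, adjusted p = 0.0225) in 6 of 7 lines, a call lost without RAL-208 (-0.27, adjusted p = 0.0691) or D. simulans (-0.22, adjusted p = 0.0878), in a range of 0.00535 to 0.546. Both genes overlap an exon of a neighbour on the other strand, CG31546 and CRAT, and the sources used here do not state whether reads were counted by strand.

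Of the 5 genes with a name that were fitted, 4 passed on this side. The gene shams (CG9996), the Notch xylosyltransferase, had 15.0 to 141 with a median of 60.9 in eye-antennal discs, 13.7 to 106 with a median of 68.0 in wing discs and 9.65 to 58.9 with a median of 49.6 in brains, highest in D. yakuba and lowest in D. willistoni in each tissue. It was above the brain by 0.52 (SE 0.12, adjusted p = 0.00246, 7 of 7 lines) in the eye-antennal disc and 0.41 (SE 0.12, adjusted p = 0.0103, 6 of 7 lines) in the wing disc. The first was lost without D. simulans, D. yakuba and D. ananassae (0.40, adjusted p = 0.0602) and with no replicate block, in a range of 0.000241 to 0.564. The adjacent genes Ibf1 (CG8436) and Ibf2 (CG9740), whose products are partner insulator factors, stood at like levels, with medians of 81.8 and 64.8 in eye-antennal discs, 80.4 and 75.4 in wing discs and 54.9 and 59.5 in brains. Ibf1 was higher than in the brain by 0.28 (SE 0.08, adjusted p = 0.0112, 6 of 7 lines) in the eye-antennal disc and by 0.32 (SE 0.08, adjusted p = 0.00326, 6 of 7 lines) in the wing disc. The first of these was lost without D. yakuba (0.22, adjusted p = 0.0554, in a range of 0.00128 to 0.671). Ibf2 passed only for the wing disc, by 0.35 (SE 0.12, adjusted p = 0.0157, 7 of 7 lines), and no longer without RAL-208 (0.32, adjusted p = 0.0551, in a range of 0.00328 to 0.594). Whether the genes differ in this was not tested. Ibf1, Ibf2 and shams in the wing disc were not past the threshold when either RAL-208, Canton S and D. simulans or D. simulans, D. yakuba and D. ananassae were left out, with adjusted p of 0.0704 to 0.275, where all alternatives ranged from 0.000214 to 0.624. D. pseudoobscura held the highest Ibf2 signal, 216 in the eye-antennal disc, 229 in the wing disc and 109 in the brain.

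GstO1 (CG6662) had medians of 33.9 in eye-antennal discs, 39.2 in wing discs and 22.3 in brains, and D. yakuba lay far below the other lines, at 1.89, 2.39 and 2.14 on 18 to 28 reads. Its difference was 0.61 (SE 0.17, adjusted p = 0.00629, 6 of 7 lines) between wing disc and brain, and 0.45 (SE 0.17, adjusted p = 0.0435, 5 of 7 lines) between eye-antennal disc and brain. The first call was lost without RAL-208, Canton S and D. simulans (0.20, adjusted p = 0.157) and with no replicate block, in a range of 0.00063 to 0.684. Leaving out RAL-208, Canton S, D. simulans or D. ananassae ended the second call, with adjusted p of 0.158, 0.109, 0.0993 and 0.0682 and differences of 0.33, 0.31, 0.42 and 0.48, in a range of 0.00594 to 0.869. It belongs to a family of related genes, with GstO2 beside it, and whether reads or orthologs of its relatives were shared out differently between species was not tested.

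The fifth fitted gene with a name, Vajk2 (CG16885), passed in no comparison. It had 0.55 to 29.4 with a median of 1.78 in eye-antennal discs, 0.09 to 173 with a median of 20.2 in wing discs and 0 to 65.0 with a median of 0.18 in brains. The wing discs of D. simulans, RAL-208 and Canton S were high, at 173, 52.5 and 40.1, and those of D. yakuba, D. ananassae and D. willistoni were under 1. The log2 difference of wing disc against brain was 1.87 (SE 0.82, adjusted p = 0.0623), higher in 6 of 7 lines. Acsx1L (CG6300) reached 10 only in the brains of D. melanogaster, at 18.4 in RAL-208 and 10.7 in Canton S, and was at 5.10 or less in the other 19 libraries, so it was not fitted.

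CG3649 was a gene of 2 lines: it reached 10 in RAL-208 and D. pseudoobscura only. D. pseudoobscura had 132 in the eye-antennal disc, 82.9 in the wing disc and 21.4 in the brain, RAL-208 had 11.4, 19.0 and 7.24, and the medians over 7 lines were 1.76, 2.83 and 0.71. The log2 difference from the brain was 0.84 (SE 0.27, adjusted p = 0.0159) in the eye-antennal disc and 0.97 (SE 0.27, adjusted p = 0.0055) in the wing disc, in 6 of 7 lines each. The first was lost without D. pseudoobscura (0.56, adjusted p = 0.0665, in a range of 0.00903 to 0.747) and without RAL-208, Canton S and D. simulans. Both calls were lost with no replicate block and without D. simulans, D. yakuba and D. ananassae. They were also lost in edgeR and DESeq2 on the read counts of D. melanogaster. For the wing disc call, adjusted p over the alternatives ranged from 0.00136 to 0.748. CG31055 passed for the wing disc against the brain, by 0.60 (SE 0.18, adjusted p = 0.00811) in 7 of 7 lines, with 0.72 to 18.1 in wing discs and 0.41 to 5.34 in brains. This call was lost with no replicate block and in edgeR and DESeq2 on the read counts of D. melanogaster, in a range of 0.00265 to 0.573. In RAL-208 the sign rests on 4 reads in the wing disc and 12 in the brain. D. willistoni gave the highest value of CG31055 in all 3 tissues and was the only line above 10. CG3649 and CG31055 each overlap an exon of a neighbour on the other strand.

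CG5535 was the third gene lower in the eye-antennal disc than in the brain, beside CG4476 and CG32182. It had 13.9 to 33.0 with a median of 18.8 in eye-antennal discs and 23.4 to 36.7 with a median of 26.9 in brains, with wing discs in between at a median of 21.2. The log2 difference from the brain was -0.46 (SE 0.16, adjusted p = 0.0264) in 6 of 7 lines, and D. pseudoobscura went the other way, at 33.0 in the eye-antennal disc and 27.6 in the brain. The call was lost without Canton S (-0.46, adjusted p = 0.0616), D. ananassae (-0.31, adjusted p = 0.0798) or D. willistoni (-0.38, adjusted p = 0.093), in a range of 0.0104 to 0.147. Leaving out RAL-208, Canton S and D. simulans, or D. simulans, D. yakuba and D. ananassae, also ended it. So did no replicate block, and edgeR and DESeq2 on the read counts of D. melanogaster.

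The abundant genes that passed in no comparison were of unlike kinds. CG11839 was steady, with medians of 29.1 in eye-antennal discs, 35.4 in wing discs and 34.9 in brains, and its 3 differences lay within 0.14 of 0 on the log2 scale (SE 0.13). D. pseudoobscura stood above the other lines in every tissue, at 123, 70.5 and 130. CG5866 was high in 3 libraries: the wing disc of D. simulans at 410 on 1791 reads, and the eye-antennal and wing discs of D. pseudoobscura at 323 and 130 on 2340 and 980 reads. The other 18 libraries lay at 25.4 or less, with medians over 7 lines of 8.97 in eye-antennal discs, 0.33 in wing discs and 0.23 in brains. Its log2 difference of eye-antennal disc against brain, 2.07, had an SE of 0.98 (adjusted p = 0.0959).

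The neighbouring genes CG12310 and CG13461, both inside the span of Sytbeta, had bursts of signal in single libraries. CG12310 had 426 in the wing disc of Canton S on 2100 reads, 361 in the brain of D. simulans on 1170 reads and 114 in the eye-antennal disc of D. ananassae on 515 reads, and 42.9 or less in the other 18 libraries. The median was 9.94 in eye-antennal discs, 6.31 in wing discs and 8.88 in brains, and the log2 differences between tissues, 0.07, -0.03 and -0.09, had an SE of 0.94 each. The wing disc of Canton S also held the highest fat body marker sum of all libraries, 9026, and the brain of D. simulans the highest muscle marker sum among brains, 852, against 20.0 to 205 in the other 6. The fat body sums that came next were 7756, 5974 and 4223. They lay in the eye-antennal discs of Canton S and D. ananassae and the wing disc of D. pseudoobscura, with CG12310 at 9.94, 114 and 0.62. In the RAL-208 brain, with the muscle sum of 205, CG12310 stood at 3.16. The part of fat body or muscle in these values was not tested.

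CG13461 stayed at 2.76 or less in all 6 libraries of D. melanogaster and reached 10 in D. ananassae and in the brain of D. simulans. In D. ananassae and D. pseudoobscura the table lists the same 3 values for CG12310 and CG13461, so 1 gene of those species stands in both rows and the genes are not independent there. In D. willistoni the eye-antennal and brain values were the same as well, and the wing values, 6.31 for CG12310 and 0.56 for CG13461, were not. In all, 7 of the 48 share their 3 values with another row in at least 1 line: besides these, CG12825 with CG12824, CG14990 with CG18557, CG18563 and CG6639, CG32071 with CG12522, CG42365 with CG42364, and CG6300 with CG11659.

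CG15404 and CG31698, neighbours on arm 2L, had the widest and the third widest range of line means, 6.03 and 5.86 on the log2 scale. Their brains of D. ananassae had 464 and 558, on 1468 and 2461 reads, with 72.1 and 64.0 in the eye-antennal disc and 72.2 and 61.8 in the wing disc of that line. D. pseudoobscura and D. willistoni followed at 5.11 to 41.0 in their 6 libraries over both genes, and RAL-208, Canton S and D. simulans lay at 11.1 or less. The medians over 7 lines were 11.1 and 6.19 in eye-antennal discs, 10.1 and 10.7 in wing discs and 7.37 and 4.99 in brains. No tissue comparison passed for either gene, with absolute log2 differences of 0.32 or less and SEs of 0.50 and 0.48.

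**Figure D4:**
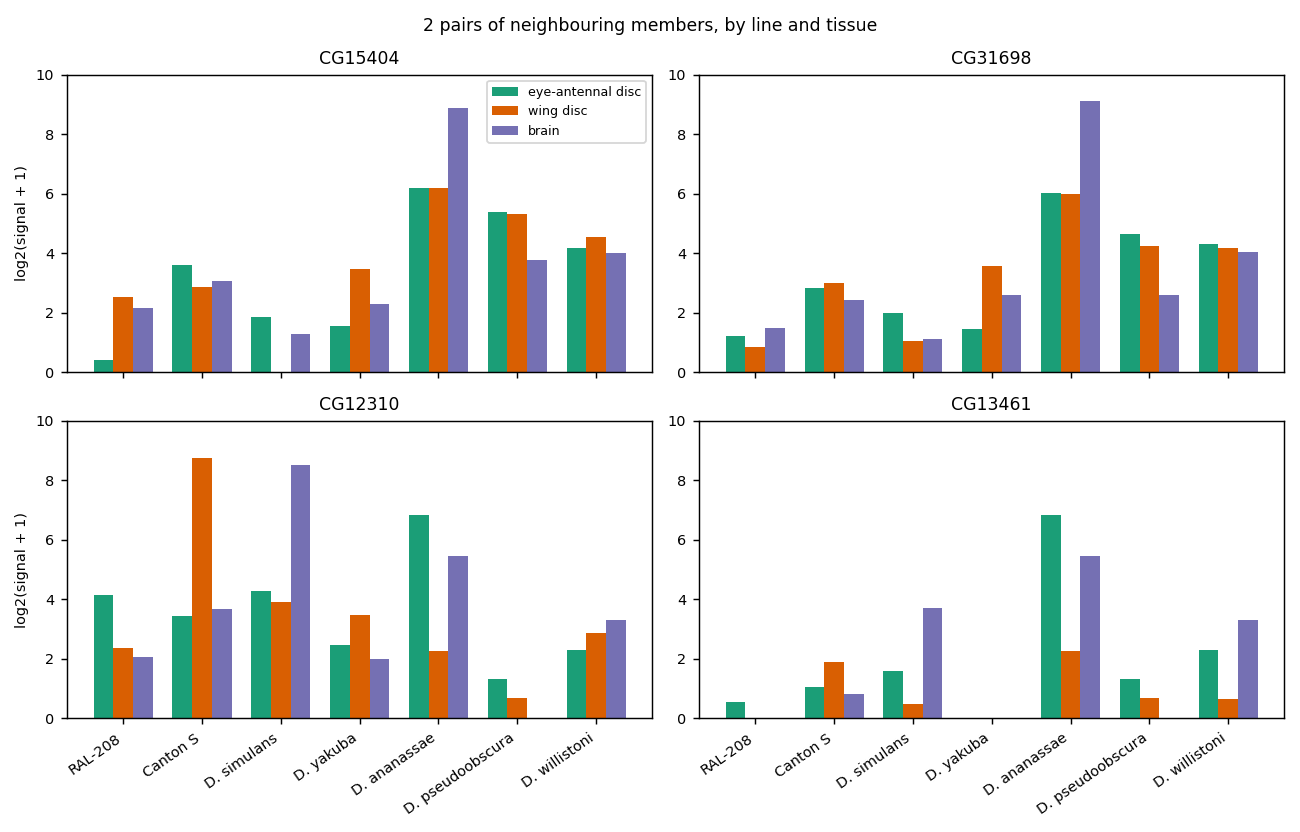
Log2(signal + 1) of the neighbours CG15404 and CG31698 (top) and CG12310 and CG13461 (bottom) in each line, with bars for eye-antennal disc, wing disc and brain from left to right. The bar of the D. ananassae brain, at a signal of 464 and 558, is the tallest in both upper panels, and the bars of CG12310 and CG13461 are identical in D. ananassae and D. pseudoobscura.

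Of the 12 genes that reached 10 in 1 line only, 5 did so in D. ananassae, 2 each in RAL-208 and D. willistoni, and 1 each in D. simulans, D. yakuba and D. pseudoobscura. CG31205 was the extreme: D. willistoni had 122 in the eye-antennal disc, 98.4 in the wing disc and 17.1 in the brain on 924, 867 and 182 reads, while the other 6 lines stayed under 1 in every tissue. CG11345 had 61.3 in the eye-antennal disc of D. yakuba on 516 reads and at most 1.76 elsewhere. CG31202 (alpha-Man-Ic) had 25.3, 21.6 and 21.1 in the eye-antennal disc, wing disc and brain of D. pseudoobscura and at most 1.81 elsewhere.

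In D. ananassae, CG10953 had 25.6 in the eye-antennal disc, CG31178 13.8 in the eye-antennal disc and 10.1 in the wing disc, CG4017 10.8 and 14 in the same tissues, CG7290 12.0 in the wing disc and CG14237 13.0 in the eye-antennal disc. CG6738 had 16.2 in the brain of D. simulans. The 2 strains of D. melanogaster also parted: CG32071 had 19.0 in RAL-208 and 0.81 in Canton S in the eye-antennal disc, and CG18327 had 16.5 and 3.01 in the brain. With 1 library for each line and tissue, a line's own level and a single dissection cannot be told apart, and of these 12 genes 4 could be fitted, of which CG31055 passed a tissue comparison.

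In none of the 39 genes fitted did a tissue difference itself differ past the threshold between the melanogaster subgroup (D. yakuba, D. simulans, RAL-208 and Canton S) and the other 3 lines. By limma, 0 of 39 passed for eye-antennal against wing disc, 0 for eye-antennal disc against brain and 0 for wing disc against brain, with backgrounds of 0.0%, 0.0% and 0.407% of all genes fitted, and 1, 2 and 6 had an unadjusted p under 0.05, or 2.56%, 5.13% and 15.4%, against 3.97%, 8.84% and 13.2% of all genes fitted. The lowest adjusted p was that of CG4570, whose wing disc against brain difference was lower in the melanogaster subgroup by -2.77 (SE 0.70, adjusted p = 0.116). Its 4 lines had 1.03, 2.31, 48.6 and 4.56 in the wing disc and 31.5, 64.8, 73.1 and 57.1 in the brain, in the order above, while D. ananassae had 50.3 and 58.2 and the last 2 lines under 1 in both. Without RAL-208 this difference passed (-3.60, adjusted p = 0.0251, in a range of 0.0251 to 1.0). CG17600 was not past the threshold with all lines (-1.42, adjusted p = 0.197) and passed without D. ananassae (-2.07, adjusted p = 0.0394), where the gene is listed at 0 in all 3 tissues. CG17600 was chosen for mention after its values were seen, since it was 1 of the 2 genes that passed under any alternative.

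The choice of the 48 did not use their length or position. Their D. melanogaster proteins had a median of 276.5 codons, against 464 over the genes with the same minimum and values in the 21 columns, 417 over the CG-numbered genes with values in all 9 lines and 403.5 over the 26 annotated named genes with values in the same 7 lines only. The shortest, CG34242, has 58 codons and was among the 7 genes at 10 or more in all 21 libraries, with medians of 32.8, 35.1 and 37.1 in eye-antennal disc, wing disc and brain. By chromosome arm of D. melanogaster, 20 lay on 3R, 14 on 3L, 7 on 2R, 6 on 2L and 1 on the X, which makes 41.7% on 3R and 2.08% on the X, against 25.7% and 14.8% of the genes with the same minimum and 30.8% and 7.69% of those 26 named genes. Of the 48, 10 overlap an exon of another gene, 1 of them on the same strand. The 10 are 20.8%, against 40.3% of the annotated genes with the same minimum and 26.9% of the 26 named genes. Inside the span of another gene lie 7 of the 48, or 14.6%, against 4.78% and 3.85% of the same sets, and 10 of the 48 have another of the 48 within 3 coding genes. The 5 such pairs are CG15404 with CG31698, CG12310 with CG13461, CG5535 with CG7408, Ibf2 with Ibf1, and CG11839 with shams. No test was run on these counts, and neighbours were not counted in the other sets.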

How the data were processed

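The authors deposited read counts per gene, under each species' own identifiers, and a joint table of normalised values under D. melanogaster symbols, whose unit is a signal. Per the submitters' processing notes, reads were aligned with TopHat2 2.0 and counted with HTSeq. The sources used here give neither the HTSeq version nor the genome builds nor the strand setting, so no positions are printed, and no sequences were at hand. Within a species, table values equalled a count divided by a gene constant and a library factor, so table rows were paired with count rows by value. In D. melanogaster that constant followed exonic length (Spearman -0.98 across 11820 genes, which are not independent replicates), and all 48 genes were paired to the identifier their name gives. Reads were recovered in all 21 libraries for 18 of the 48.

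Differences were tested with limma 3.58.1 (R 4.3.3, intensity trend) on log2(signal + 1) in 1 fit of 21 libraries with line as a block, over 7864 genes with a signal of at least 1 in 7 or more libraries. Adjusted p-values are Benjamini-Hochberg values over all of them, two-sided, called under 0.05. The labels tie the 3 tissues of a line to 1 stock, and deviations of same-line libraries from the tissue means correlated at 0.66 to 0.85 in 21 pairs. The alternatives were other pseudocounts, filters, scaling and lines, and read counts with edgeR 4.0.16 and DESeq2 1.42.0. The fitting code was tested on simulated data. Genes are named by rule: the highest means, the largest called differences with 1 sign in all lines, the widest line ranges, those nearest the minimum, the abundant uncalled ones and neighbours. Best matches between proteins were not used here. Other genes were added as examples of the counts after their values were seen. The 48 genes and the marker lists were chosen with earlier results of these data known. Marker lists without a result above were glia, wing disc, hemocytes, trachea and cuticle, testis and salivary gland. Their highest sums, in this order, were 540, 721, 187, 909 and 18.4, with no salivary gland marker listed in all 21 columns. Those of antennal disc, adult muscle precursors and ring gland were 347, 66.3 and 574.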

Additional observations from a re-analysis of the deposited data

Results flagged for a closer look

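In a group of 7 lines, a library is given here when its gap to the nearest other line, as a share of the group's range on the log2(signal + 1) scale, exceeds Dixon's critical value for a group of 7. Chance gives about 1 such group in 20. Of the 144 groups of the 48 genes, 40 had one, or 27.8%, against 12.7% of the groups of the 7426 genes with the same minimum. Choosing genes for a signal of 10 in 1 or more libraries favours such groups, so nothing is read from the share. In the 24 genes named by rule there were 19 in 72 groups.

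D. willistoni stood above the other lines for CG31055 in the eye-antennal disc at 12.7, the wing disc at 18.1 and the brain at 5.34, and for CG31205 at 122, 98.4 and 17.1 in the same tissues. It stood below them for shams (CG9996) in the brain at 9.65. D. ananassae stood above the others for CG15404 and CG31698 in the brain at 464 and 558, for CG13461 in the eye-antennal disc at 114 and for CG7290 in the wing disc at 12.0. D. pseudoobscura stood above them for CG11839 in the eye-antennal disc at 123 and the brain at 130, and below them for CG10286 in the wing disc at 34.7.

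D. yakuba was apart for GstO1 (CG6662), low in the eye-antennal disc at 1.89 and the wing disc at 2.39. Canton S was high in the wing disc for CG12310 at 426 and CG14237 at 9.65, and D. simulans was high in the brain for CG5866 at 19.1.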

How the results depend on the processing

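The counts of genes called stayed within 1.5 times of those reported, except as follows. Eye-antennal against wing disc gave 2 in place of 4 without RAL-208, Canton S and D. simulans. Eye-antennal disc against brain gave 3 in place of 11 with no replicate block, 6 without D. simulans, D. yakuba and D. ananassae, and 7 with edgeR on the read counts of D. melanogaster, where 38 of the 48 genes could be tested. Wing disc against brain gave 4 in place of 13 with no replicate block and 8 without RAL-208, Canton S and D. simulans. Leaving out each line in turn gave 3 to 4, 9 to 12 and 11 to 14 calls in the 3 tissue comparisons and 0, 0 and 0 to 1 in the differences between the melanogaster subgroup and the other 3 lines. The wing disc against brain difference between those sets of lines also gave 1 call without D. simulans, D. yakuba and D. ananassae. Over the single genes, 452 values under an alternative kept their direction and side of the threshold, 90 kept the direction without passing, 1 passed only under the alternative and 0 reversed. The cause of these moves was not tested, except that fewer lines leave fewer libraries to the fit. CG4476 and CG4324 passed under every alternative run, and so did CG5653 between the discs, CG32182 and CG10286 between wing disc and brain. For the other calls, the alternatives named with each gene above are not always all those that ended the call. With library medians set equal, wing disc against brain gave 12 higher and 3 lower in place of 9 and 4, against 34.2% higher and 27.1% lower of all genes fitted. Values of wing discs with few reads limit the precision of CG4476, CG32182 and CG5653.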
